A study of Mus musculus with 16 samples.

Results

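The effect of losing FoxO1, FoxO3 and FoxO4 was measured in the quadriceps muscle of mice with free access to food. The 4 fed mFoxO-TKO mice, which carry deletions of all 3 genes in skeletal muscle, were compared with 4 fed wild-type (WT) mice, by the sample titles. These are 8 of the 16 arrays of the series, whose other 8 come from mice of both genotypes fasted for 24 h. All mice were males aged 8 weeks, and each array holds RNA of 1 mouse by the labels. Cre recombinase under the human skeletal actin (HSA) promoter made the deletion, so that non-muscle cells of the tissue keep their FoxO genes. The labels name no Cre control or floxed allele for the WT mice.

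FoxO proteins are forkhead transcription factors that act when insulin and growth factor signalling is low. In the fed state the kinase AKT phosphorylates them, and they are held in the cytoplasm. In muscle they are known for switching on genes of protein breakdown, autophagy and fuel use during fasting and wasting. The comparison in fed mice therefore asks what the 3 factors do while they are thought to be mostly restrained.

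Levels are log2 signals relative to the 75th percentile of the spots of the same array, so that 0 stands for that brightness, and a level is compared only between arrays for the same probe. A change is the mFoxO-TKO mean minus the WT mean on the log2 scale, given ± the standard error of a limma model of all 16 arrays, with n = 4 arrays per group unless stated. Between 55.0% and 68.0% of the spots were well above background on the WT arrays and between 47.5% and 68.9% on the mFoxO-TKO arrays. Of each group, slide 1 carried replicates 1 and 2, and slide 2 carried replicates 3 and 4. Every group kept to its own column of a slide, so array position and group cannot be told apart. As RNA came from whole muscle, fewer cells of a type and less RNA per cell cannot be told apart either. Nothing in the labels says whether mice of a group were littermates, so p-values measure the spread between the mice of this series only. That spread is pooled within all 4 groups, the fasted ones included, and not taken from the fed mice alone.

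Of 21280 genes tested, 315 differed at an adjusted p under 0.05 (1.48%), 138 of them higher (0.648%) and 177 lower (0.832%) in fed mFoxO-TKO muscle. At an unadjusted p under 0.05 there were 2446. At least a 2-fold change was seen for 104 of the higher and 83 of the lower genes. The 4 arrays of one genotype did not overlap with the 4 of the other for 133 of the higher and 177 of the lower genes. Over all genes tested 10.0% did not overlap. With slide as a block in the model 601 genes passed (2.82%), among them each of the 315. The arrays of slide 1 by themselves gave 161 genes and those of slide 2 gave 34. Leaving out 1 array at a time gave between 152 (without WT replicate 2) and 396 (without mFoxO-TKO replicate 4). Without that replicate the higher genes numbered 239 and the lower ones 157. Of the 315 genes, 54 higher and 76 lower ones passed without each of the 8 fed arrays in turn.

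**Figure D1:**
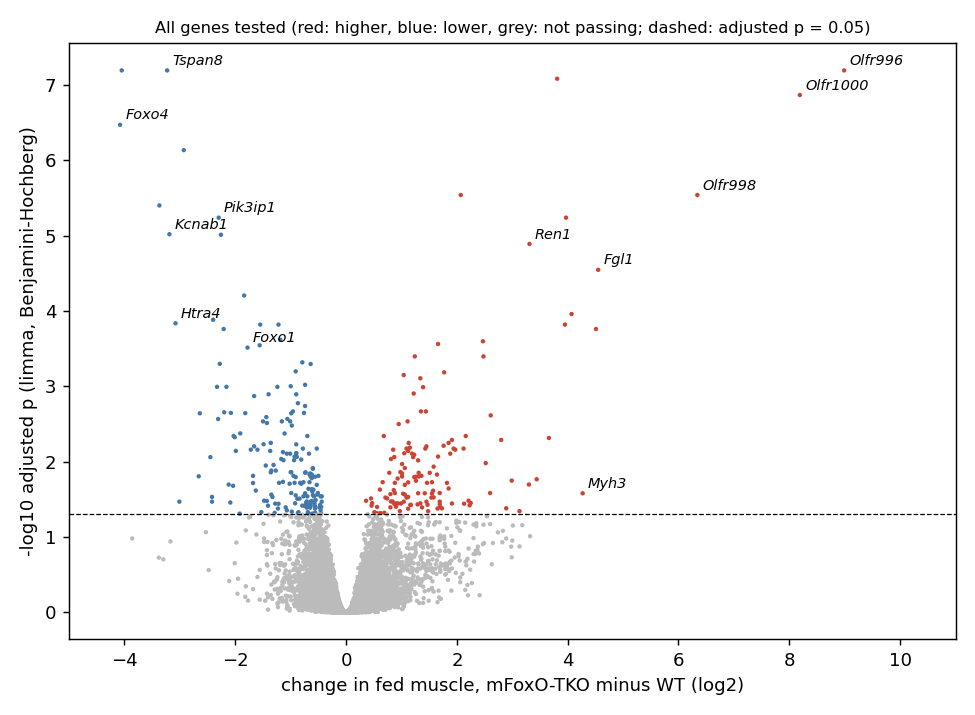
Change of each of the 21280 genes tested (x axis, mFoxO-TKO minus WT in fed muscle, log2) against -log10 of its adjusted p (y axis). Red points are the 138 higher genes, blue points the 177 lower ones, and the dashed line marks an adjusted p of 0.05. Olfr996 and Olfr1000 lie farthest to the right, at 8.99 and 8.19, and Foxo4 lies at -4.08.

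The deleted genes were examined first. Foxo4 stood at -2.31, -2.29, -2.43 and -2.34 in WT replicates 1 to 4 and at -5.76, -6.79, -6.60 and -6.54 in mFoxO-TKO replicates 1 to 4. No mFoxO-TKO array was well above background for this probe. Foxo4 was therefore at least 6.70-fold lower (adjusted p = 3.38e-07), a bound that replaces the mFoxO-TKO levels by the dimmest signal detected on those arrays. With normexp background correction, which lifts dim signals, its change was -1.59 (adjusted p = 0.0175). Foxo1 stood at 2.69, 2.86, 2.43 and 2.80 in WT and between 0.42 and 1.40 in mFoxO-TKO muscle. The groups did not overlap, and the change was -1.78 ± 0.21 (3.43-fold lower, adjusted p = 3.07e-04), or -1.43 ± 0.25 by the other Foxo1 probe. A single dim probe stood for Foxo3, detected on 3 arrays of each group, at -4.19, -4.36, -4.69 and -4.15 in WT and -3.42, -3.61, -3.90 and -3.61 in mFoxO-TKO muscle. Its change of 0.71 ± 0.27 had the opposite sign and did not pass (adjusted p = 0.264). Foxo6, the family member that was not deleted, changed by 0.50 ± 0.19 (adjusted p = 0.272). The position of the 3 probes against the removed exons is not given in the sources used here, so that none of them can be read as a check of the deletion by itself. Among the 5 protein-coding genes on each side of Foxo1, Foxo3 and Foxo4 (order of GRCm38.p6), 1 of 9, 1 of 8 and 0 of 5 tested genes passed. Setd7, a lysine methyltransferase gene near Foxo1, was lower by -0.70 ± 0.11 (adjusted p = 0.00458). Armc2, next to Foxo3, was higher by 1.55 ± 0.31 (adjusted p = 0.0188). The Armc2 call did not survive without WT replicate 1, 3 or 4 (change between 1.34 and 1.96), or with normexp (0.87, adjusted p = 0.0663). Setd7 and Armc2 were chosen after their values were seen.

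Below Foxo4, the largest falls among the named genes were those of Tspan8, Kcnab1, Htra4 and Fam83d. Tspan8, a tetraspanin of the cell membrane, stood at 3.12, 3.15, 2.92 and 3.07 in WT and at -0.08, 0.20, -0.30 and -0.50 in mFoxO-TKO muscle. All 4 knockout mice were thus far below all 4 WT mice, by -3.23 ± 0.17 (9.41-fold, adjusted p = 6.41e-08). Kcnab1, a beta subunit of voltage-gated potassium channels, stood at 1.30, 1.82, 0.92 and 0.83 against -2.20, -1.87, -1.92 and -1.91. Its change was -3.19 ± 0.26 (9.13-fold lower, adjusted p = 9.59e-06). Pik3ip1, whose product restrains PI 3-kinase in the insulin pathway, stood at 3.52, 3.47, 3.39 and 3.14 in WT muscle. In mFoxO-TKO muscle it stood at 1.20, 1.35, 1.02 and 0.75, a change of -2.30 ± 0.18 (4.93-fold lower, adjusted p = 5.78e-06). Each of these 3 genes passed without any 1 of the 8 arrays. The serine protease gene Htra4 (-3.08 ± 0.33), the ascorbate transporter family member Slc23a3 (-2.26 ± 0.19), the small G protein gene Rasd2 (-2.33 ± 0.31) and Cntnap2, a neurexin family gene (-2.40 ± 0.25), were lower too. Their adjusted p-values were at most 0.00102. Cd28, the costimulatory receptor gene of T cells, was lower by -2.28 ± 0.28 (adjusted p = 5.04e-04), from 0.66, 0.03, -0.26 and 0.81 to -1.51, -1.47, -2.36 and -2.53. None of the 6 lymphocyte markers tested passed, and their summed linear level ran from 2.31 to 2.89 on the WT arrays and from 2.07 to 2.63 on the mFoxO-TKO arrays. The RNA-binding protein gene Igf2bp3 (-2.64 ± 0.38) and the retinoid transporter gene Abca4 (-2.31 ± 0.34) were well above background on only 1 mFoxO-TKO array each (adjusted p at most 0.00273), so that these sizes are set against signals near background. With normexp they shrank to -0.76 and -0.91 and did not pass (adjusted p = 0.475 and 0.198). Fam83d, a gene of the mitotic spindle, was lower by -3.01 ± 0.66 (adjusted p = 0.0341), and Dnase1, a nuclease gene, by -2.42 ± 0.51 (adjusted p = 0.0295). Cstdc2 was detected on none of the mFoxO-TKO arrays and was at least 2.42-fold lower (adjusted p = 0.0341). Its call was lost with the replicate number as a block (adjusted p = 0.0609). With normexp Htra4 (-1.77) and Fam83d (-1.75) passed, while Dnase1 (-0.95, adjusted p = 0.211) and Cstdc2 (-0.81, adjusted p = 0.516) did not. The calls of Fam83d, Dnase1 and Cstdc2 were also lost without 1 array: any but mFoxO-TKO replicates 3 and 4 for Fam83d (-3.43 to -2.42), any but WT replicate 1 and mFoxO-TKO replicate 4 for Dnase1 (-2.63 to -2.08), and any but mFoxO-TKO replicate 1 for Cstdc2 (-2.76 to -2.20).

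The largest rises were in genes that were at background in WT muscle. Olfr996, an olfactory receptor gene, stood at -7.11, -7.22, -7.01 and -7.28 in WT and at 2.67, 1.53, 1.56 and 1.58 in mFoxO-TKO muscle. No WT array and all 4 mFoxO-TKO arrays were well above background, so that Olfr996 was at least 130-fold higher (adjusted p = 6.41e-08). Olfr1000 was at least 65.8-fold higher with n = 3 mFoxO-TKO arrays (adjusted p = 1.36e-07), and Olfr998 at least 22.0-fold (adjusted p = 2.89e-06). Olfr996, Olfr998 and Olfr1000 follow one another among the protein-coding genes of GRCm38.p6. Of the 5 protein-coding genes on each side of this trio, all on the array, 1 was bright enough to be tested, and with no filter on dim probes 0 of 10 passed. Olfr983 was at least 3.68-fold higher (adjusted p = 1.52e-04). Olfr437 was higher by 4.07 ± 0.42 (adjusted p = 1.10e-04), with 1 WT array well above background. Of 1075 olfactory receptor genes on the array, with no filter on dim probes, these 5 passed as higher and 0 as lower. Of all 36717 genes tested in that way, 82 passed as higher and 87 as lower. The share called in either direction was thus about the same in this family as over all genes. The filter kept 79 of them, and these 5 came through it on the mFoxO-TKO arrays where they are high. With normexp Olfr996 (5.12), Olfr1000 (4.20), Olfr998 (2.75) and Olfr437 (1.24) were smaller and passed, and Olfr983 did not (1.08, adjusted p = 0.190). Receptor genes of this family resemble one another, and the probe sequences were not used here, so a shared signal between close relatives was not tested.

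Fgl1, Ren1, Maats1 and Cyct followed among the large rises that did not overlap with WT. Fgl1, a fibrinogen-like gene of the liver, stood at -6.02, -7.22, -6.99 and -5.74 in WT and at -1.58, -2.75, -1.81 and -1.64 in mFoxO-TKO muscle (4.55 ± 0.42, adjusted p = 2.85e-05), with 1 WT array well above background. Ren1, the gene of the protease renin, stood at -2.38, -2.91, -2.92 and -2.71 against 1.41, 0.55, 0.13 and 0.21 (3.31 ± 0.28, 9.90-fold higher, adjusted p = 1.29e-05). It was well above background on all 8 arrays. Maats1, a cilium gene, was higher by 3.97 ± 0.31 (adjusted p = 5.78e-06), with 1 WT array well above background. Cyct, the testis form of cytochrome c, was at least 4.95-fold higher (adjusted p = 0.00487). These 4 genes and the 5 olfactory receptor genes passed without any 1 of the 8 arrays. With normexp Fgl1 (1.64) and Maats1 (1.05) were smaller and passed, and Cyct did not (1.01, adjusted p = 0.221). For each gene given as at least N-fold (Foxo4, Cstdc2, Cyct, Olfr983, Olfr996, Olfr998 and Olfr1000) the normexp change was smaller than that bound, which holds for the background subtraction of the deposited signals.

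**Figure D2:**
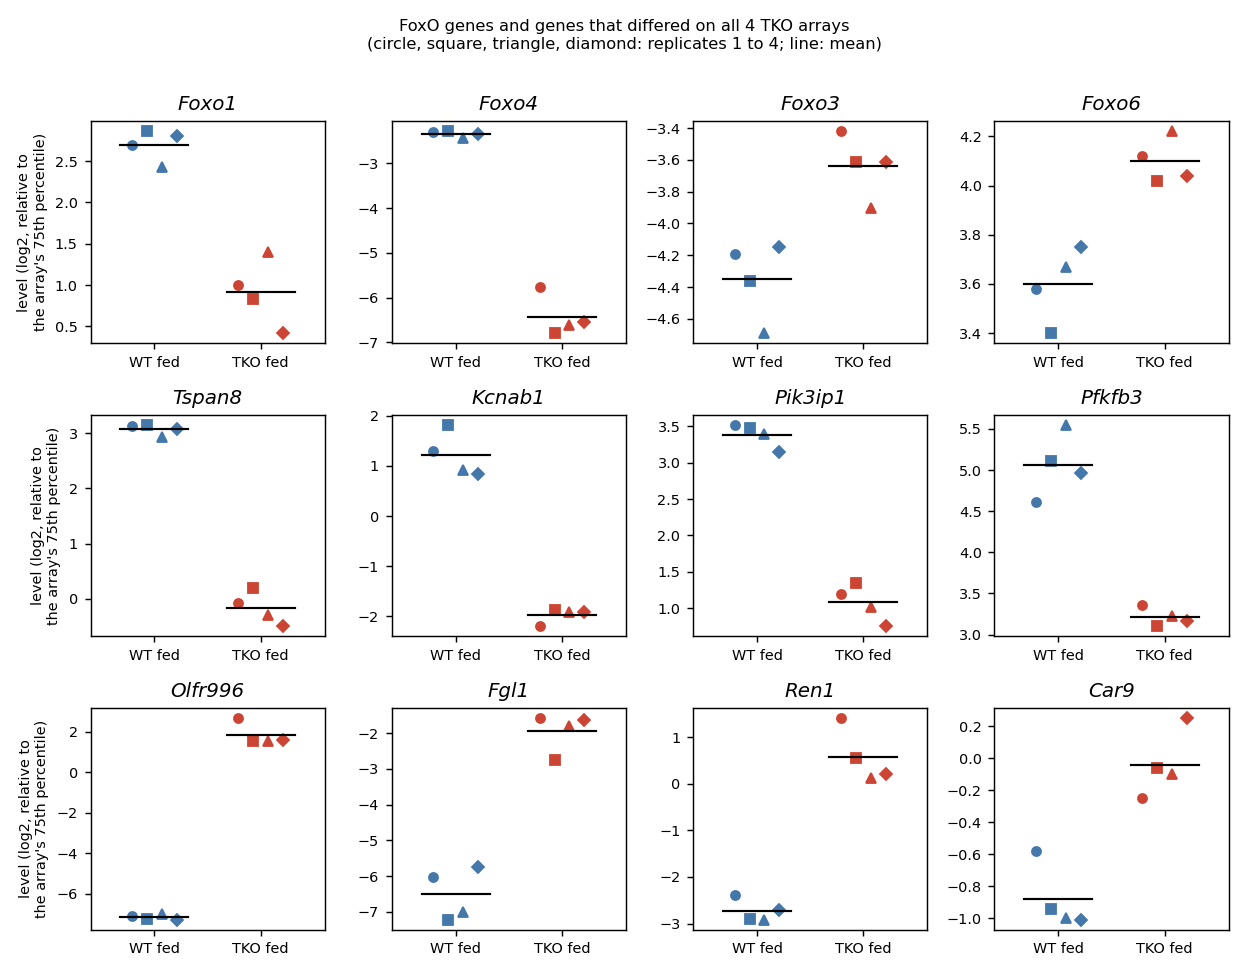
Level of 12 genes on each fed array (y axis, log2 relative to the array's 75th percentile; each panel has its own scale), with WT in blue and mFoxO-TKO in red, symbols for replicates 1 to 4 and a line at the mean. In each panel the 4 mFoxO-TKO arrays lie on one side of the 4 WT arrays. Foxo3 and Foxo6 did not pass the test.

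A second set of rises was uneven among the knockout arrays. Signal differed between these arrays too. The share of spots well above background was 47.5%, 54.8%, 62.2% and 68.9% on mFoxO-TKO replicates 1 to 4. On WT replicates 1 to 4 it was 55.6%, 56.3%, 55.0% and 68.0%. The part of array signal or slide in the uneven rises was not tested. None of the rises named for this set, from Myh3 to Tmsb10 below, passed in a limma fit of the 8 fed arrays by themselves (adjusted p of 0.0644 or more). Myh3, the embryonic myosin heavy chain of developing and regenerating fibres, stood at 0.03, -0.02, 0.09 and 0.13 in WT muscle and at 5.99, 5.69, 5.27 and 0.36 in mFoxO-TKO replicates 1 to 4. Replicates 1 to 3 were thus high and replicate 4 lay just above WT. The change of 4.27 ± 0.89 passed (adjusted p = 0.0264; 4.22 ± 0.86 by the other probe), but the call was lost without any 1 array other than mFoxO-TKO replicate 4 (3.71 to 5.59). Genes of the neuromuscular junction and of denervated muscle were also lowest in replicate 4 among the knockout mice. Chrna1, the alpha subunit of the muscle acetylcholine receptor, stood at 2.38, 2.39, 2.42 and 2.81 in WT and at 4.53, 4.70, 3.84 and 2.86 in mFoxO-TKO muscle (1.48 ± 0.34, adjusted p = 0.0456), while its other probe did not pass (1.02 ± 0.34, adjusted p = 0.195). The fetal gamma subunit gene Chrng stood at -3.71, -4.64, -4.12 and -4.03 against -1.70, -1.88, -2.52 and -3.79 (1.65 ± 0.38, adjusted p = 0.0421). The delta subunit gene Chrnd was higher by 1.06 ± 0.22 (adjusted p = 0.0275) and the adhesion molecule gene Ncam1 by 1.04 ± 0.23 (adjusted p = 0.0341; 1.15 ± 0.26 and 0.99 ± 0.26 by its other probes, the latter not passing). These 4 calls were lost without any 1 array other than mFoxO-TKO replicate 4 (and WT replicate 4 for Chrnd), with changes between 0.88 and 2.09. With the replicate number as a block Chrna1 and Chrng did not pass (adjusted p = 0.0570 and 0.0504). Of 22 neuromuscular genes tested these 4 were higher, 0 were lower and 18 did not pass, with a median of 0.26 against -0.01 over all genes. The called share was 18.2%, against 1.48% of all genes in either direction and 0.648% higher. With normexp Chrng did not pass (0.68, adjusted p = 0.583). Without mFoxO-TKO replicate 4 the higher ones numbered 6.

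Among 14 developmental sarcomere and imprinted growth genes 2 were higher and 12 did not pass (14.3% called against 1.48% of all genes; median 0.68), and without mFoxO-TKO replicate 4 there were 5 higher. The first was Myh3 and the second the growth factor gene Igf2, at -1.95, -2.40, -1.56 and -1.49 in WT and 0.35, -0.13, -0.58 and -1.22 in mFoxO-TKO muscle (1.45 ± 0.32, adjusted p = 0.0341). Of the 14 genes 4 had a change below 0. Myh8, another developmental myosin gene, picked with its values in view, changed by -0.34 ± 0.14 with n = 3 mFoxO-TKO arrays (adjusted p = 0.337). Its other probe gave -0.18 ± 0.11. Igf2 did not pass with normexp (adjusted p = 0.0731), with the replicate number as a block (adjusted p = 0.0509) or without any 1 array other than WT replicate 4 and mFoxO-TKO replicate 4 (1.20 to 1.73). Mt2, a metallothionein that binds zinc and answers to glucocorticoids, stood at 3.91, 3.57, 3.83 and 3.84 against 7.04, 7.63, 5.94 and 4.64 (2.52 ± 0.45, 5.75-fold higher, adjusted p = 0.0105). Its call held without any 1 array, but a fit of the 8 fed arrays by themselves lost it (adjusted p = 0.0678). Cdkn1a, which encodes the cell cycle inhibitor p21, stood at 0.76, 1.26, 0.66 and 0.99 against 2.61, 2.19, 1.78 and 1.46 (1.09 ± 0.23, adjusted p = 0.0301). Leaving out WT replicate 2 or mFoxO-TKO replicate 4 kept the Cdkn1a call, and leaving out any of the other 6 lost it (0.89 to 1.28). Mt2 and Cdkn1a were the 2 of 25 glucocorticoid target genes that passed (8.00%). Cdkn1a was the 1 of 21 genes of cell cycle arrest (4.76%), and Ncam1 the 1 of 30 myogenic genes (3.33%), where 1.48% of all genes passed. A single call in lists of that size lies above 1.48% by itself and does not show an excess. Dbh, the enzyme that makes noradrenaline (3.44 ± 0.67), the cadherin gene Celsr3 (3.30 ± 0.66) and the mesothelial gene Msln (3.13 ± 0.72) were higher with replicate 4 lowest of the 4 (adjusted p at most 0.0456). Dbh was well above background on 1 WT array and Celsr3 on 2, and with normexp Dbh (0.96, adjusted p = 0.628), Celsr3 (1.32, adjusted p = 0.319) and Msln (2.09, adjusted p = 0.0929) did not pass. Msln did not pass with the replicate number as a block either (adjusted p = 0.0656). Without 1 array their changes ran from 2.66 to 4.27, and the calls were lost without WT replicate 1 or 2 or mFoxO-TKO replicate 2 or 3 in each case. Those of Celsr3 and Msln were lost also without WT replicate 4 or mFoxO-TKO replicate 1, and that of Msln without WT replicate 3. The tubulin genes Tubb2b (2.25 ± 0.50) and Tubb6 (1.55 ± 0.32) and the actin-binding thymosin gene Tmsb10 (1.70 ± 0.39), 3 cytoskeletal genes chosen after their values were seen, were lowest in replicate 4 too (adjusted p at most 0.0406). Their calls were lost without any 1 array other than mFoxO-TKO replicate 4 (1.35 to 2.90).

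**Figure D3:**
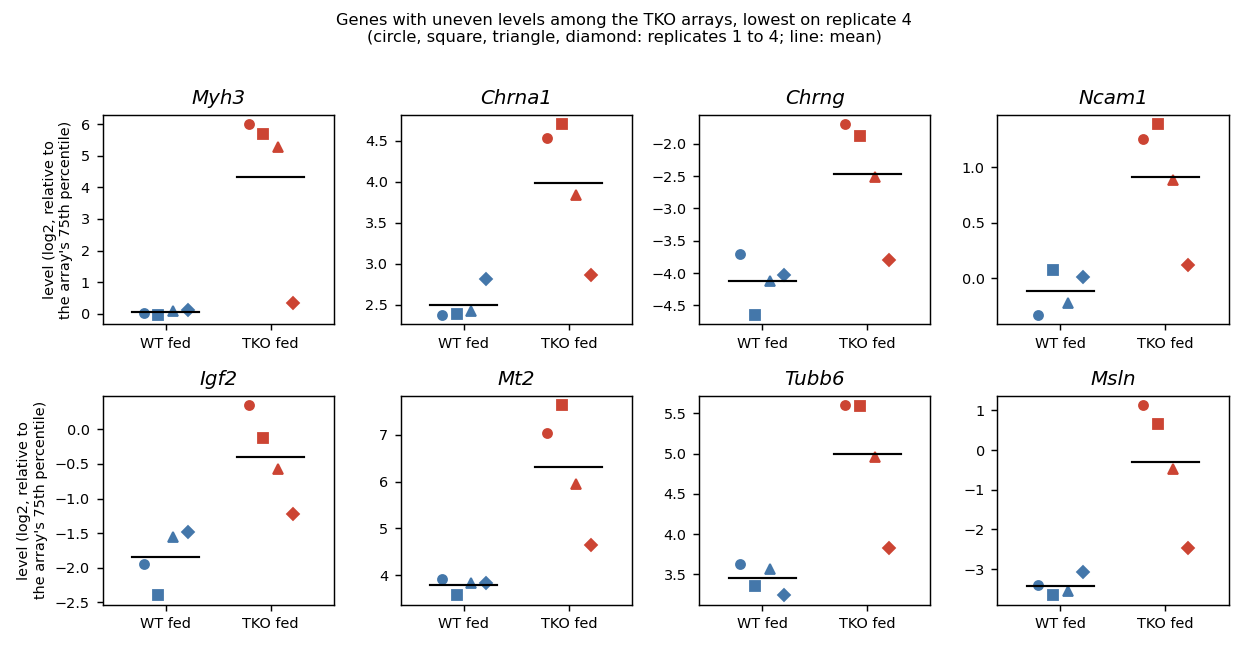
Level of 8 genes on each fed array (y axis, log2 relative to the array's 75th percentile; each panel has its own scale), with WT in blue, mFoxO-TKO in red and a line at the mean. In every panel mFoxO-TKO replicate 4 (diamond) is the lowest of the 4 mFoxO-TKO arrays, and in the Myh3 panel it lies at 0.36 beside 5.27 to 5.99 for the others.

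Of the 136 higher genes with a value on every mFoxO-TKO array, replicate 4 was the nearest to WT for 66, replicate 2 for 33, replicate 3 for 21 and replicate 1 for 16. The 177 lower genes gave 39, 45, 29 and 64 in the same order of replicates. Cell division genes were uneven as well, with 0 of them passing as higher. An unadjusted p under 0.05 was seen for 16 of 24, and for 2446 of all 21280 genes tested. Without mFoxO-TKO replicate 4, 2 of them passed as higher, where 239 of all genes did. Of 24 tested, 22 had a change above 0, where 47.9% of all genes did, with a median of 1.01, which was 1.89 within slide 1 and 0.30 within slide 2. Their mean level was -1.94, -1.78, -1.38 and -1.58 in WT and -0.46, 0.10, -0.94 and -1.61 in mFoxO-TKO muscle, so that replicate 4 lay within the WT range. Birc5 (2.05 ± 0.69, adjusted p = 0.206) and Rrm2 (1.55 ± 0.49, adjusted p = 0.167), chosen after their values were seen, show the size of these differences. The 1 member that passed was the spindle gene Tpx2, which was lower (-1.23 ± 0.28, adjusted p = 0.0421). The Tpx2 call was lost on leaving out any array (-1.31 to -1.15), and its other probe did not pass (-0.93 ± 0.27, adjusted p = 0.126). All 9 macrophage markers tested had a change above 0 (median 0.67) and none passed (5 at an unadjusted p under 0.05), and their summed linear level ran from 15.3 to 26.9 in WT and from 22.2 to 47.5 in mFoxO-TKO muscle. Cd68 changed by 1.17 ± 0.57 (adjusted p = 0.464) and Lyz2 by 0.91 ± 0.38 (adjusted p = 0.349). Of 9 satellite cell markers 8 had a change above 0 (median 0.36), and none passed (1 at an unadjusted p under 0.05). Their summed level ran from 33.0 to 51.3 in WT and from 46.5 to 80.8 in mFoxO-TKO muscle. Each marker of both lists was well above background on all 8 arrays. The part of these cells in the uneven rises was not tested. The 10 markers of muscle fibres had a median of -0.05 and none passed, with the fast myosin gene Myh4 at 7.69, 7.58, 7.69 and 7.81 in WT and 7.53, 7.54, 7.53 and 7.39 in mFoxO-TKO muscle.

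**Figure D4:**
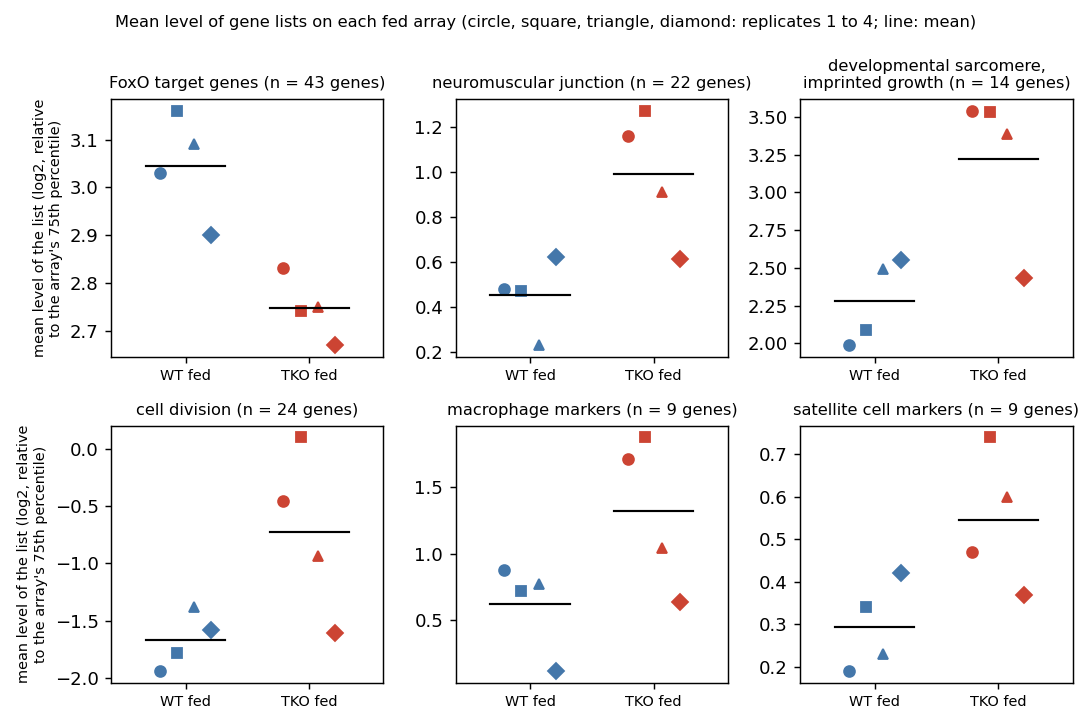
Mean level of the members of 6 gene lists on each fed array (y axis, log2 relative to the array's 75th percentile; each panel has its own scale), with WT in blue, mFoxO-TKO in red and a line at the mean. FoxO targets are lower on all 4 mFoxO-TKO arrays (2.67 to 2.83, WT 2.90 to 3.16), and replicate 4 (diamond) is the lowest mFoxO-TKO array in each panel.

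Genes described as FoxO targets had changes mostly below 0, and 2 passed (4.65%, against 1.48% of all genes). With slide as a block 1 was higher and 3 were lower, where 2.82% of all genes passed. Of 43 tested, 37 had a change below 0 (86.0%, against 52.1% of all genes), with a median of -0.30. Such a lean was not particular to this list. Changes below 0 made 91.3% of citric acid cycle, 88.6% of amino acid breakdown, 80.0% of fast fibre and 77.6% of respiratory chain genes. The medians of these 4 lists were -0.08, -0.19, -0.15 and -0.07. Lysosome genes went the other way, with 31.4% below 0. Their mean level was 3.03, 3.16, 3.09 and 2.90 in WT and 2.83, 2.74, 2.75 and 2.67 in mFoxO-TKO muscle, without overlap. Pnpla2, the triglyceride lipase ATGL, was the 1 that passed as lower (also the 1 of 50 fatty acid use genes), at 5.44, 5.44, 5.64 and 5.31 against 5.06, 4.50, 4.81 and 4.71 (-0.68 ± 0.14, 1.61-fold lower, adjusted p = 0.0230). Its call was lost without WT replicate 1, 2 or 3 or mFoxO-TKO replicate 2 or 3 (-0.78 to -0.59) and with normexp (adjusted p = 0.0672). Cdkn1a, given above, passed as higher. The best known targets, picked by name with their values in view, did not pass. Fbxo32 (atrogin-1), a ubiquitin ligase of atrophy, stood at 2.41, 4.15, 3.26 and 2.67 against 3.01, 2.33, 2.09 and 2.15, with overlap (-0.72 ± 0.30, adjusted p = 0.353). Trim63 (MuRF1), the other such ligase, changed by -0.89 ± 0.30 (adjusted p = 0.207) and the translation inhibitor gene Eif4ebp1 by -0.89 ± 0.26 (adjusted p = 0.126; 0.0322 with slide as a block). The autophagy genes Gabarapl1 (-0.34 ± 0.17), Map1lc3b (-0.36 ± 0.17) and Ulk1 (-0.37 ± 0.12), the protease gene Ctsl (-0.15 ± 0.12), Sesn1 (-0.50 ± 0.27), Depp1 (-0.37 ± 0.39), the insulin receptor substrate gene Irs2 (-0.42 ± 0.32) and the kinase gene Pdk4 (-0.31 ± 0.31) had adjusted p-values of 0.198 or more. Map1lc3b passed with slide as a block (adjusted p = 0.0492) and not with the replicate number as a block (0.0692).

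Other genes of protein breakdown gave 1 call in each list, all lower (2.44% to 4.00% of a list, against 1.48% of all genes). In lists of 25 to 41 genes a single call lies above 1.48% by its size alone, so these shares do not show an excess. With slide as a block, where 2.82% of all genes passed, the lower ones numbered 2 of the proteasome genes, 2 of the atrophy genes and 4 of the autophagy genes. Psme4, the proteasome activator PA200, stood at 4.13, 4.03, 4.16 and 4.28 against 3.46, 3.24, 3.42 and 3.31 (-0.79 ± 0.10, adjusted p = 4.82e-04). It was the 1 of 34 proteasome genes to pass (median -0.09), and its dimmer probe gave -0.78 ± 0.24 (adjusted p = 0.163). Asb4, a ubiquitin ligase adaptor, was the 1 of 25 atrophy genes (-0.81 ± 0.16, adjusted p = 0.0197), with a call lost without WT replicate 1, 2 or 4 or mFoxO-TKO replicate 2 or 3 (-0.89 to -0.74) and -0.54 ± 0.20 by its other probe. Of 41 autophagy genes 34 had a change below 0 (median -0.16), and the receptor gene Sqstm1 (p62) passed at -0.45 ± 0.10 (adjusted p = 0.0401). Leaving out any array lost the Sqstm1 call (-0.49 to -0.42). Of 35 lysosome genes the cholesterol exporter gene Npc1 passed at -1.02 ± 0.20 (adjusted p = 0.0197), while the median was 0.08. The Npc1 call held only without WT replicate 4 or mFoxO-TKO replicate 4 (-1.11 to -0.93).

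Among 31 regulators of mTORC1 and of translation 3 were lower (9.68% against 1.48% of all genes), and 25 of the 31 had a change below 0 (median -0.15). With slide as a block 7 of them were lower, where 2.82% of all genes passed. Castor2, whose family senses arginine, stood at 5.32, 5.20, 5.20 and 5.28 against 4.55, 4.12, 4.32 and 4.06 (-0.99 ± 0.14, adjusted p = 0.00229). Prkab2, a subunit of the energy sensor AMPK, stood at 5.01, 5.09, 5.01 and 5.04 against 4.19, 4.34, 4.41 and 4.27 (-0.74 ± 0.10, adjusted p = 9.58e-04). Both kept their calls without any 1 array. Deptor, an mTOR inhibitor, was lower by -0.69 ± 0.16 (adjusted p = 0.0470). Its call was lost on leaving out any array (-0.73 to -0.65), with the replicate number as a block (adjusted p = 0.0612) and with normexp (adjusted p = 0.858). Among 39 insulin and IGF genes Pik3ip1 was lower and Igf2 higher (5.13% called against 1.48% of all genes).

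In most of the metabolic lists 1 member passed, which made 2.17% to 8.33% of a list, against 1.48% of all genes (2.82% with slide as a block). Pfkfb3, which makes the activator of glycolysis fructose 2,6-bisphosphate, stood at 4.61, 5.11, 5.55 and 4.97 in WT and 3.36, 3.10, 3.23 and 3.17 in mFoxO-TKO muscle (-1.84 ± 0.18, 3.59-fold lower, adjusted p = 6.25e-05; -2.08 ± 0.26 by the other probe). It was the 1 of 46 glycolysis and glycogen genes to pass. Smox, the spermine oxidase gene, was lower by -1.50 ± 0.23 (adjusted p = 0.00293) as the 1 of 12 polyamine genes (2 with slide as a block). The alanine transaminase gene Gpt2 was lower by -0.74 ± 0.10 (adjusted p = 0.00183), 1 of 35 amino acid breakdown genes (2 with slide as a block), of which 31 had a change below 0. Slc43a1, a leucine transporter gene and the 1 of 23 amino acid transporters, was lower by -1.35 ± 0.25 (adjusted p = 0.0132; lost without WT replicate 2 or 3, -1.47 to -1.23). Fdft1, the squalene synthase gene, was the 1 of 22 cholesterol genes (-1.16 ± 0.17, adjusted p = 0.00293), though its dimmer probe gave -0.83 ± 0.55 (adjusted p = 0.676). Scd2, a fatty acid desaturase gene with close relatives, was higher by 1.12 ± 0.22 (adjusted p = 0.0189; lost without WT replicate 2 or 3 or mFoxO-TKO replicate 3, 0.94 to 1.28) while 18 of 23 fatty acid synthesis genes had a change below 0. Me3, a mitochondrial malic enzyme gene and the 1 of 23 citric acid cycle genes, was lower by -0.50 ± 0.10 (adjusted p = 0.0155; lost with normexp, adjusted p = 0.0640, and without WT replicate 1 or 4 or mFoxO-TKO replicate 2, -0.55 to -0.44; not passing by its other 2 probes, at -0.29 ± 0.14 and -0.21 ± 0.22). None of 67 respiratory chain genes and none of 18 PPAR, ERR and PGC-1 regulators passed (medians -0.07 and -0.00), where 3 and 1 had an unadjusted p under 0.05.

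Of 40 antioxidant genes the peroxidase gene Gpx3 was lower by -1.45 ± 0.26 (adjusted p = 0.0113; lost without WT replicate 2, -1.63 to -1.25) and the glutathione transferase gene Gstm1 by -0.47 ± 0.11 (adjusted p = 0.0378; lost with normexp, adjusted p = 0.187, and without any 1 array other than WT replicate 4, -0.53 to -0.40), beside the higher Mt2. Mylk2, the myosin light chain kinase of skeletal muscle, was the 1 of 20 fast fibre genes (-0.64 ± 0.12, adjusted p = 0.0148; lost without WT replicate 1 or 2 or mFoxO-TKO replicate 3, -0.69 to -0.58). Car9, a carbonic anhydrase at the cell surface and the 1 of 13 carbonic anhydrases (7.69%), stood between -1.01 and -0.58 in WT against -0.25, -0.06, -0.10 and 0.25 (0.84 ± 0.18, adjusted p = 0.0340). A single call among 20 or 13 genes lies above 1.48% by itself and does not show an excess. Of the arrays left out in turn, WT replicate 1 and mFoxO-TKO replicate 1 kept the Car9 call (0.75 to 0.95), and normexp lost it (0.62, adjusted p = 0.195). No member passed by limma among 33 ATF4 targets (8 at an unadjusted p under 0.05), 33 chaperones (2), 23 immediate early genes (7), 39 TGF-beta and BMP genes (6), 20 slow fibre genes (0), 31 calcium genes (4), 27 ribosome biogenesis genes (3), 44 matrix genes (1), 20 angiogenic genes (1) or 28 interferon and antigen presentation genes (3). Over all genes 2446 of the 21280 had an unadjusted p under 0.05. None passed in the 12 lists of cell type markers, where the lists not described above or under the other observations had medians between -0.14 (red blood cells) and 0.26 (neutrophils). Among genes outside the lists, chosen after their values were seen, were Maob, the monoamine oxidase gene (-2.21 ± 0.24, adjusted p = 1.74e-04), Gatm, which starts creatine synthesis (1.97 ± 0.33, adjusted p = 0.00696), and Dmd, the dystrophin gene (-0.94 ± 0.17, adjusted p = 0.00960). The 2 other probes of Dmd did not pass (-0.66 ± 0.28 and -0.54 ± 0.17).

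FoxO proteins bind a forkhead motif, and RefSeq promoters (GRCm38.p6, 250 bases before to 50 after each start) were searched for GTAAACA on either strand (TGTTTAC on the other). Of the 177 lower genes 95 had a promoter in the table, and 9 of these held the motif (9.47%), against 1 of 83 higher genes (1.2%), 357 of 11240 genes tested (3.18%) and 1095 of all 27025 genes in the table (4.05%). A form longer by 1 base, with either G or A first (GTAAACAA or ATAAACAA, TTGTTTAC or TTGTTTAT on the other strand), which overlaps the first, was held by 7 (7.37%), 2 (2.41%), 221 (1.97%) and 777 (2.88%) of them. A match describes letters and not a bound site. To show where the motif lies, windows around it are given for 6 of the 9 lower genes (those with an ordinary symbol, other than Zfp874b), each 5′ to 3′ on the strand of its gene with the motif in capitals. In Tspan8, Egf and Aldoc the motif lies before the start, and in Ypel3, Pnpla7 and Plekhb1 within the first 50 bases after it.
Tspan8, chr10:115817221-115817283, plus strand: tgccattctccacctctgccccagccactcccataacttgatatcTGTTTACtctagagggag
Egf, chr3:129725210-129725306, minus strand: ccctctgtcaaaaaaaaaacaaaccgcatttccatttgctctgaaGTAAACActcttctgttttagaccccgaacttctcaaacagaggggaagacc
Aldoc, chr11:78324005-78324101, plus strand: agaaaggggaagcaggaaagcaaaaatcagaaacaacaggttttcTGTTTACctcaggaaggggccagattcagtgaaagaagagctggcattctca
Ypel3, chr7:126776977-126777006, plus strand: ctggtctcggtGTAAACAagtcgaggcggc
Pnpla7, chr2:24976057-24976082, plus strand: cacgtgagggcTGTTTACaggagacg
Plekhb1, chr7:100656916-100656939, minus strand: cctggcctgttTGTTTACtaacgc

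Tspan8 had the largest fall of these 6 genes. Ypel3, a growth-suppressing gene, stood at 5.13, 5.33, 5.24 and 4.86 against 4.43, 4.35, 3.85 and 4.00 (-0.98 ± 0.15, adjusted p = 0.00333). The lysophospholipase gene Pnpla7 stood at 1.96, 2.32, 2.34 and 1.99 against 0.71, 1.05, 1.09 and 1.31 (-1.11 ± 0.17, adjusted p = 0.00424). The growth factor gene Egf (-0.93 ± 0.16) and the aldolase gene Aldoc (-0.90 ± 0.15) were lower with adjusted p-values of at most 0.00860, and with normexp Aldoc did not pass (adjusted p = 0.0867). Plekhb1 was lower by -1.14 ± 0.22 (adjusted p = 0.0186; -1.07 ± 0.17 by its other probe), a call lost without WT replicate 1, 2 or 3 (-1.26 to -0.89).

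The same deletion was measured in fasted muscle on other arrays, so that the fed and fasted changes share no mice. Both tests use the same pooled estimate of the spread of a gene, however. A gene with a small spread passes both more easily, so the 2 sets of calls are not independent. Of the 315 genes, 219 (69.5%) also passed in fasted mFoxO-TKO against fasted WT muscle in the same direction, 90 of the 138 higher and 129 of the 177 lower ones. There 12.5% of all genes passed, 5.43% higher and 7.04% lower. They were 8.25% of the 2653 genes that passed there. The difference between the fasted and the fed change (interaction) passed for 24 of the 315 genes, against 2.20% of all genes. Tspan8 (-3.74), Foxo4 (-4.25), Pik3ip1 (-2.93), Kcnab1 (-2.87), Ren1 (3.49) and Olfr996 (7.63) had fasted changes whose difference from the fed ones did not pass (interaction adjusted p between 0.297 and 0.909). The fall was larger in fasted muscle for Foxo1 (-3.42, interaction adjusted p = 0.00803), Pfkfb3 (-3.91, 8.47e-04), Slc43a1 (-4.20, 8.47e-04), Npc1 (-2.25, 0.0393), Pnpla7 (-2.61, 0.00501) and Sqstm1 (-1.19, 0.0187). Car9 rose more there (3.20, interaction adjusted p = 4.15e-04). Cd28, lower in fed muscle, had a fasted change of -0.27 (interaction adjusted p = 0.0152). The FoxO targets Depp1 (-4.12 fasted), Sesn1 (-2.75), Gabarapl1 (-1.98), Ulk1 (-1.94) and Ctsl (-1.44) differed between the feeding states too (interaction adjusted p at most 0.00614). The interaction did not pass for Pnpla2, Trim63, Pdk4, Irs2, Eif4ebp1, Map1lc3b and Fbxo32 (adjusted p between 0.104 and 0.981). The uneven genes Myh3 (1.03 fasted), Chrna1 (0.59), Chrng (0.26), Igf2 (0.46) and Mt2 (0.74) did not pass in fasted muscle, and their interactions did not pass either (adjusted p of 0.214 or more).

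**Figure D5:**
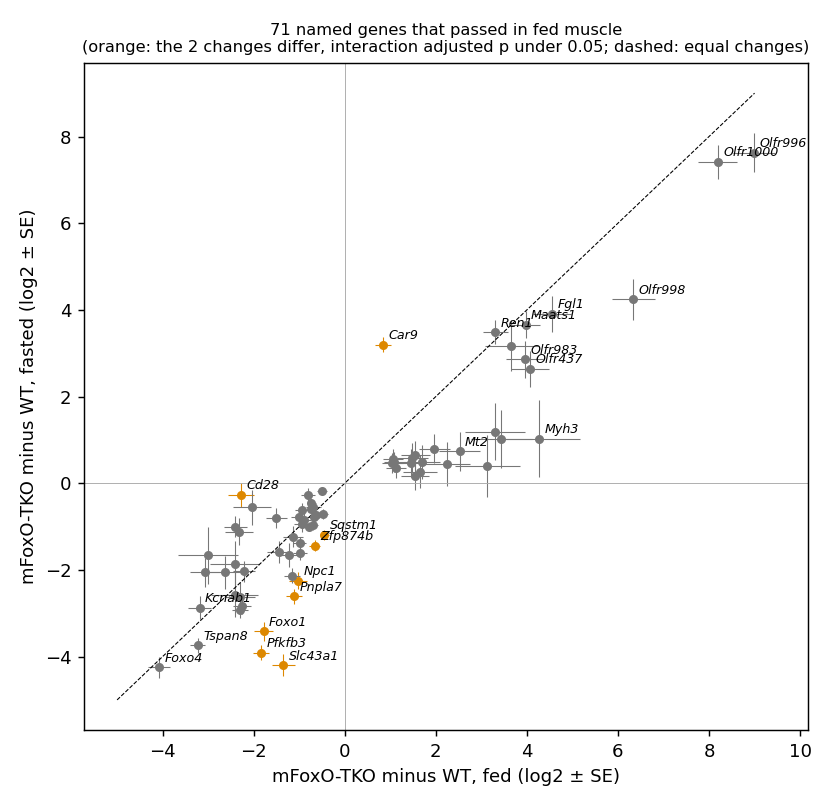
Change in fed muscle (x axis) against change in fasted muscle (y axis), mFoxO-TKO minus WT in log2 with standard errors, for the 71 named genes that passed in fed muscle. Orange points are genes whose 2 changes differ by the interaction test, the dashed line marks equal changes, and Car9 lies above it at 0.84 and 3.20 while Slc43a1 lies below it at -1.35 and -4.20.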

How the data were processed

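Per the labels, total RNA was labelled with Cy3 and hybridised to 1-colour Agilent arrays. Per the file headers, the deposited intensities were made with Feature Extraction 11.0.1.1 (9.5 per the submitters' processing notes), background-subtracted, spatially detrended and not scaled between arrays, and probe coordinates are of mm9. The authors' value table holds linear scores of 18324 spots with a 75th percentile of 100 on each array, and served as an alternative after log2(score + 1). From 59305 spots, log2 signals minus the array's 75th percentile were averaged to 55681 probes. Spots marked uneven or as outliers were left out (0.143% to 1.38% per fed array). Probes detected above background on all 4 arrays of 1 or more groups were kept, with the brightest probe standing for a gene. Symbols came through RefSeq accessions (14148 of 21280 genes). A limma 3.58.1 model (R 4.3.3) of 4 group means was fitted, with Benjamini-Hochberg adjustment over all genes, and was tested on simulated data. Same-numbered fed WT and mFoxO-TKO arrays share slide and row, and their deviations from the group means had correlations of 0.33, 0.21, 0.16 and 0.29. Those of differently numbered arrays ran from -0.27 to 0.28 (WT replicate 4 with mFoxO-TKO replicate 3, both on slide 2). Whether the numbers pair mice was not tested. The main model holds no pairing, and the replicate block does. No 2 arrays of a group were identical. Named genes were the FoxO family, the 14 largest rises and falls, and up to 4 passing members of each list, or the 2 largest changes where none passed. Some genes chosen so are not reported here. The members, the 38 pathway lists and the 12 marker lists were chosen with earlier results of these data known. Lists are described by counts and medians.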

Additional observations from a re-analysis of the deposited data

Results flagged for a closer look

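Single arrays stood apart from the other 3 of their group, by a gap above Dixon's critical value, in 10 of 252 groups checked. Chance gives about 1 in 20. Among mFoxO-TKO arrays, Myh3 was low on replicate 4 (0.36, others 5.27 to 5.99), and Myh4 was low there as well (7.39, others 7.53 to 7.54). Replicate 1 was high for Olfr996 (2.67, others 1.53 to 1.58), Esrrb (1.90, others 1.28 to 1.33) and Sesn1 (2.30, others 1.54 to 1.67) and low for Kcnab1 (-2.20, others -1.92 to -1.87). Slc23a3 was high on replicate 2 (-3.10, others -3.64 to -3.61). Among WT arrays, replicate 4 was high for Olfr437 (-5.65, others -7.11 to -6.86) and Chrna1 (2.81, others 2.38 to 2.42), and replicate 3 was high for Depp1 (2.30, others 1.27 to 1.41).

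The knockout change differed between fasted and fed muscle by the interaction test for 16 named genes. The difference, fasted minus fed on the log2 scale, was -3.75 for Depp1, -2.85 for Slc43a1, -2.80 for Chac1, -2.25 for Sesn1, -2.06 for Pfkfb3, -1.80 for Myc, -1.65 for Foxo1, -1.64 for Gabarapl1, -1.57 for Ulk1, -1.49 for Pnpla7, -1.29 for Ctsl, -1.23 for Npc1, -0.78 for Zfp874b and -0.74 for Sqstm1. It was 2.35 for Car9 and 2.01 for Cd28.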

How the results depend on the processing

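The 315 genes (138 higher, 177 lower) became 176 (70 and 106) with normexp background correction, 169 (82 and 87) with no filter on dim probes and 601 (251 and 350) with slide as a block. Within slide 1 they were 161 (116 and 45) and within slide 2 they were 34 (11 and 23), where each group has 2 arrays. With the 75th percentile taken without marked spots, an alternative chosen after seeing the data, 215 passed (106 and 109). The replicate block gave 455 genes (196 and 259), of which 297 are among the 315, and it kept 65 of the 71 named calls. A limma fit of the 8 fed arrays by themselves gave 328 genes (157 and 171), of which 220 are among the 315. There the named uneven rises from Myh3 to Tmsb10 did not pass (adjusted p of 0.0644 or more). Pnpla2, Sqstm1, Scd2, Me3, Gpx3, Gstm1, Plekhb1, Armc2 and Kl did not pass there either (adjusted p of 0.0513 or more). Leaving out 1 array at a time gave between 152 and 396 genes, between 66 and 239 higher and between 86 and 157 lower. The share of higher genes moved from 43.8% to 72.0% within slide 1, 32.4% within slide 2 and 60.4% without mFoxO-TKO replicate 4. With the percentile taken over probes well above background on all arrays it stayed at 44.6%. All 71 named calls kept their direction under every alternative that gave a value, 38 passed without each fed array in turn, and 13 passed under all alternatives. Depp1, which did not pass, turned from -0.37 to 0.18 within slide 2 and ran from -0.75 to 0.03 on leaving out 1 array, with 0.03 without mFoxO-TKO replicate 2. The cause of these shifts was not tested. Dim probes limit the rises: 9 of the 138 higher genes were not well above background on any WT array, and 6 of the 177 lower ones on any mFoxO-TKO array.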

Other observations

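On the first principal component of the 8 fed arrays (40.5% of the variance) the mFoxO-TKO mice scored 65.6, 42.7, 1.99 and -10.1 as replicates 1 to 4, and the WT mice between -29.8 and -18.1. Of 10 fat cell markers 9 had a change below 0 (median -0.32) and none passed, and Adipoq, which encodes the fat hormone adiponectin, changed by -0.50 ± 0.27. All 10 endothelial markers had a change below 0 (median -0.16), but the median was 0.21 within slide 2. The tendon cell transcription factor gene Scx was 1.23 ± 0.32 higher without passing (adjusted p = 0.0831), and all 4 mFoxO-TKO arrays (3.70 to 4.30) lay above the 4 WT arrays (2.24 to 3.12). Of the 10 tendon cell markers, Scx included, 8 had a change below 0 (median -0.30). That median was -0.74 within slide 1, 0.14 within slide 2 and 0.10 without mFoxO-TKO replicate 1. Kl, the gene of the FGF23 co-receptor klotho, picked with its values in view, was lower by -2.04 ± 0.41 (adjusted p = 0.0210), a call lost without WT replicate 2 or 4 or mFoxO-TKO replicate 1, 2 or 3 (-2.54 to -1.67) and with normexp (-0.80, adjusted p = 0.331).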
